A study of Mus musculus with 6 samples.

Results

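The 10 genes described here belong to the p53 and GADD45 damage response: Gadd45a, Gadd45b, Gadd45g, Mdm2, Ccng1, Zmat3, Phlda3, Trp53inp1, Aen and Btg2. They were taken by name from a table of 19937 genes, and all 10 were measured. Each had 1 probe set annotated to its symbol alone, and no filter on low values was applied. RNA came from mammary epithelial organoids, pieces of gland freed by collagenase and hyaluronidase and embedded in growth factor-reduced Matrigel, a basement-membrane gel. The donors were age-matched female FVB mice carrying the ErbB3 DOX-KO genotype, in which doxycycline (DOX) induces loss of Erbb3, a receptor that binds neuregulins. All organoids shared this genotype. After 14 days with 5 µM DOX, 3 cultures were compared with 3 kept without it, 1 array each. The series' design text calls these biological replicates. Which promoter drives the induction, and how many mice gave organoids, the labels do not say. No DOX-treated organoids without the knockout allele were used here, so an effect of the drug and an effect of the lost receptor cannot be told apart.

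The transcription factor p53 is stabilised by DNA damage and other stresses and switches on genes that halt the cell cycle, aid repair or promote death. One of its targets, Mdm2, encodes the ubiquitin ligase that marks p53 for destruction, which closes a feedback loop. The GADD45 proteins are small stress-induced partners of PCNA, of the CDK1 and cyclin B1 kinase and of the MAP kinase kinase kinase MEKK4. They are induced through p53 and also through other routes, among them ATF4, NF-kB and TGF-beta signalling, and Gadd45a, Gadd45b and Gadd45g respond to these routes to different degrees.

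On 2 of the 3 DOX arrays, 9 of the 10 genes read above every control array and Gadd45b read below every one. On these arrays, replicates 1 and 3, 25.4% of all genes read above and 26.2% below every control array. Of the 10 genes, Gadd45a and Trp53inp1 differed most there. The remaining DOX array, replicate 2, had a compressed scale. Its slope on the control means across genes was 0.548, against 0.981 for DOX replicate 1 and 0.936 for DOX replicate 3, and its correlation with other arrays was at most 0.865, where the other arrays reached at least 0.963 among themselves. The 10 genes lay in the upper part of the control range (control means 7.02 to 11.28 on the log2 scale, with a median over all genes of 5.93), where most genes read low on that array. The differences of the 10 genes are therefore given with all arrays and without DOX replicate 2. The targeted gene, Erbb3, had a difference of 0.10 (adjusted p = 0.845 in limma) over all arrays and of 0.37 (adjusted p = 0.105 in limma) without DOX replicate 2, so a loss of its signal was not seen and the arrays are named by their labels. Of the luminal keratins, Krt8 was at 12.52 and Krt18 at 12.64 in the control mean, while Krt19 was at 4.80, below the median of all genes. Of 8 markers each, the mean log2 level on control arrays was 9.98 to 10.01 for luminal epithelium, 5.54 to 5.65 for basal epithelium and 4.75 to 4.91 for fibroblasts.

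**Figure D1:**
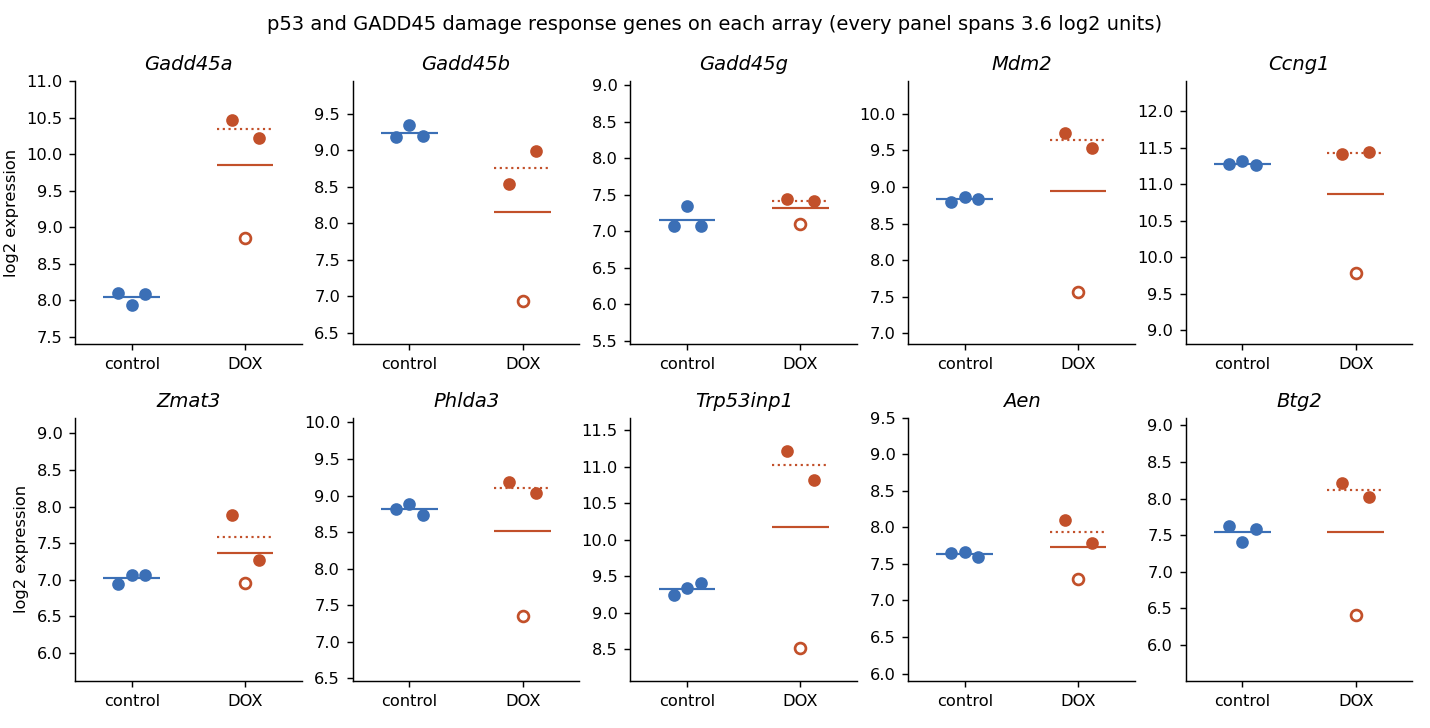
Log2 expression of the 10 genes (y axis) on control and DOX arrays (x axis). Each point is 1 array, the open symbol is DOX replicate 2, solid lines are group means and dotted lines the mean of DOX replicates 1 and 3. Gadd45a is above the control arrays on all 3 DOX arrays, as are 11.7% of all genes, and Gadd45b below them on all 3, as are 20.3%.

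With all 6 arrays, none of the 10 genes passed an adjusted p of 0.05 in limma, where 0.120% of all genes were called higher and 2.26% lower. At an unadjusted p under 0.05, Gadd45a alone passed, as higher, against 3.16% of all genes higher and 10.9% lower. Without DOX replicate 2, 5 of the 10 rose (Gadd45a, Trp53inp1, Mdm2, Btg2 and Zmat3), 1 fell (Gadd45b) and 4 did not pass (Gadd45g, Ccng1, Phlda3 and Aen). In that comparison, which rests on 2 DOX arrays, 12.3% of all genes were called higher and 14.3% lower. These shares cover genes of every level, while all 10 genes lay above the median level, so they understate the share among genes of similar level. With the 50% of genes of lowest mean left out, 2240 were still called higher and 2820 lower, against 2454 and 2855 of all 19937. The genes kept were 50% of the 19937, so the shares called among them were larger than 12.3% and 14.3%. With that filter 7 of the 10 genes were higher and 1 lower, which is to be read against those larger shares. The median log2 difference of the 10 was 0.43, against 0.01 for all genes, and with all arrays it was 0.10 against 0.02.

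**Figure D2:**
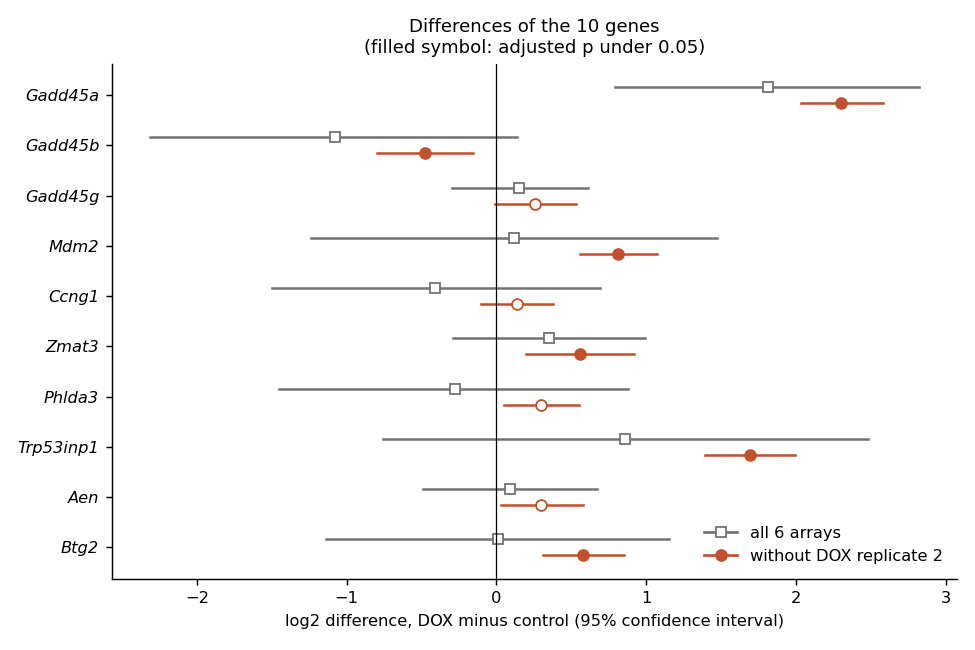
Log2 difference, DOX minus control (x axis), of each of the 10 genes (y axis), with the 95% confidence interval of limma. Squares use all 6 arrays and circles leave out DOX replicate 2, and filled symbols mark an adjusted p under 0.05. The intervals with all arrays are wide, from 0.79 to 2.82 for Gadd45a, and 6 circles are filled.

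Of the 3 GADD45 genes, 1 rose, 1 fell and 1 did not pass without DOX replicate 2, and none passed with all arrays. Gadd45a encodes the founding member of the family, found as a growth arrest and DNA damage inducible transcript. It read 8.10, 7.93 and 8.09 on control replicates 1, 2 and 3, and 10.47, 8.85 and 10.22 on DOX replicates 1, 2 and 3. All 3 DOX arrays lay above all control arrays, as for 11.7% of all genes, and DOX replicate 2 was the lowest of the 3. Group values were 8.04 ± 0.09 in control and 9.85 ± 0.87 in DOX arrays (SD, n = 3 each). The difference of 1.81 (SE 0.43, limma adjusted p = 0.108) was 3.50-fold and did not pass with all arrays. Leaving out DOX replicate 2, Gadd45a rose by 2.30 (SE 0.12, limma adjusted p = 2.82e-07), which is 4.94-fold. Quantile and cyclic loess normalization of all 6 arrays, and array weights, also called it.

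Gadd45b is known as a gene of myeloid differentiation that TGF-beta and NF-kB signalling induce. Control arrays gave 9.18, 9.35 and 9.19, and DOX replicates 1, 2 and 3 gave 8.53, 6.94 and 8.99. The groups did not overlap, with every DOX array lower, as for 20.3% of all genes. The means were 9.24 ± 0.10 and 8.16 ± 1.08 (SD, n = 3 each), a difference of −1.08 (SE 0.51, limma adjusted p = 0.406). It fell by 0.48 once DOX replicate 2 was left out (SE 0.15, limma adjusted p = 0.0324). This call was lost in 6 of 14 alternatives, in which the adjusted p reached 0.204, and the difference was −0.25 where DOX replicate 1 was also left out. Gadd45g, first described as a cytokine-response gene, read 7.07, 7.34 and 7.07 on control arrays and 7.44, 7.10 and 7.41 on DOX replicates 1, 2 and 3. Its groups overlapped through DOX replicate 2. All arrays gave a difference of 0.15, with a 95% confidence interval of −0.30 to 0.61 (limma adjusted p = 0.664). Leaving out DOX replicate 2 gave 0.26, with an interval of −0.01 to 0.53 (limma adjusted p = 0.151).

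The paralogs were also compared within each array. The log2 value of Gadd45a minus that of Gadd45b was −1.20 ± 0.19 in control and 1.69 ± 0.40 in DOX arrays (SD, n = 3 each), so their changes differed by 2.89. The changes of Gadd45a and Gadd45g differed by 1.65, and those of Gadd45g and Gadd45b by 1.24. In each of the 3 pairs the DOX arrays did not overlap the control arrays, and the two-sided exact permutation p was 0.1, the smallest that 3 against 3 arrays allow, and 0.1 after adjustment over the 3 pairs. When DOX replicate 2 was dropped the changes differed by 2.78, 2.04 and 0.74, again with an exact permutation p of 0.1. How often other pairs of genes fail to overlap was not computed. Taking the difference within an array does not remove the compressed scale of DOX replicate 2, which varies with level. On that array genes of like control level had a median difference from control of −1.06 for Gadd45a, −1.59 for Gadd45b and −0.75 for Gadd45g. The part of this in the pair differences was not tested. The values given are differences between changes. Levels of different probe sets were not compared.

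The bases before the start of the 3 GADD45 genes are shown because the calls of these paralogs differed. They come from the RefSeq annotation of GRCm38.p6, are written 5′ to 3′ on the gene's strand, and cover the 250 bases up to the transcript start. Capitals mark the octamer ATTTGCAT, the CCAAT box CCAAT and the TATA box TATAAA on either strand. The intervals are chr6:67037408-67037657 on the minus strand for Gadd45a, chr10:80929841-80930090 on the plus strand for Gadd45b and chr13:51846425-51846674 on the plus strand for Gadd45g.
Gadd45a: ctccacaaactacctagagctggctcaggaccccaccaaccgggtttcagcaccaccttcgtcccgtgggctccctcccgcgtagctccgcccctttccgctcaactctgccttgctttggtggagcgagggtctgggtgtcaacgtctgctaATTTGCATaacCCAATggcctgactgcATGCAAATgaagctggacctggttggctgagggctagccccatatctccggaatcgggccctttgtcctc
Gadd45b: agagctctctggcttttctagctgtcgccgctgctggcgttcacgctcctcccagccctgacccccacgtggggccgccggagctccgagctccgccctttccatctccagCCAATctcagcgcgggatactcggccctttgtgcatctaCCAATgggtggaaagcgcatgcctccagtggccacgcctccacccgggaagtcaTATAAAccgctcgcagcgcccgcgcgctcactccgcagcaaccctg
Gadd45g: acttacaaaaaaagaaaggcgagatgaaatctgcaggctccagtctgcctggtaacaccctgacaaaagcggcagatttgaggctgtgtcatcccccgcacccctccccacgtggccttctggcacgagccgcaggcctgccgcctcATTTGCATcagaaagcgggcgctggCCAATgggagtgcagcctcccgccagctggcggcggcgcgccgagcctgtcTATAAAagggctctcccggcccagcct

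Gadd45a held 2 octamers in opposite orientation, at −97 to −90 and −70 to −63 from the start, with a CCAAT box between them at −86 to −82. Gadd45g held 1 octamer at −103 to −96, and Gadd45b held none in this window. Windows reaching 50 bases past the start, 300 bases in all, were searched on both strands for 27025 genes. An octamer was found in 1.97% of them and 2 or more octamers in 0.130%, while 41.1% had a CCAAT box and 15.7% a TATA box. These motifs and those below were chosen after the sequences were seen. Their shares therefore describe the windows and are no test of how unusual a paralog is. Of the 3 paralogs, Gadd45b and Gadd45g had a TATA box. In Gadd45g the octamer overlapped a match to the ATF4 element TGATGNAA, found in 4.51% of genes, and neither other paralog matched that element here. A match describes letters and was not tested as a binding site.

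The p53 consensus was searched as its half-site of 10 bases. Windows were at hand for 8 of the 10 genes, all but Zmat3 and Trp53inp1, and 4 of these 8 held a half-site (Gadd45a, Mdm2, Ccng1 and Aen), against 9.55% of the 27025 genes. Each of the 4 held a single half-site, while 0.392% of the 27025 genes held 2 or more. A lone half-site is part of the consensus and was not tested as a binding site, and sites outside the windows were not searched. The matches are shown with 10 bases on each side, the half-site in capitals, because they are the p53 consensus letters found in these windows. The intervals on GRCm38.p6 are chr6:67037428-67037457 on the minus strand for Gadd45a, chr10:117710925-117710954 on the minus strand for Mdm2, chr11:40755452-40755481 on the minus strand for Ccng1 and chr7:78895927-78895956 on the plus strand for Aen.
Gadd45a: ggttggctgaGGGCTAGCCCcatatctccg
Mdm2: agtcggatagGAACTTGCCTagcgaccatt
Ccng1: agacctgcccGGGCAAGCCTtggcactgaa
Aen: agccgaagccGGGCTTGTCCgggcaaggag

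Of the 4 genes with a half-site in the window, Gadd45a and Mdm2 rose without DOX replicate 2, while Ccng1 and Aen did not pass. Of the 4 without one, Btg2 rose, Gadd45b fell, and Gadd45g and Phlda3 did not pass. The half-sites began at −40 in Gadd45a, −186 in Mdm2 and −185 in Ccng1. In Aen the match began at 11, past the first of 2 annotated starts, and at −121 from the second. Btg2 held a cAMP response element, TGACGTCA, at −166 to −159, a motif present in 2.03% of genes. The E-box CACGTG, in 8.09% of genes, was found in Gadd45b, Gadd45g and Aen.

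**Figure D3:**
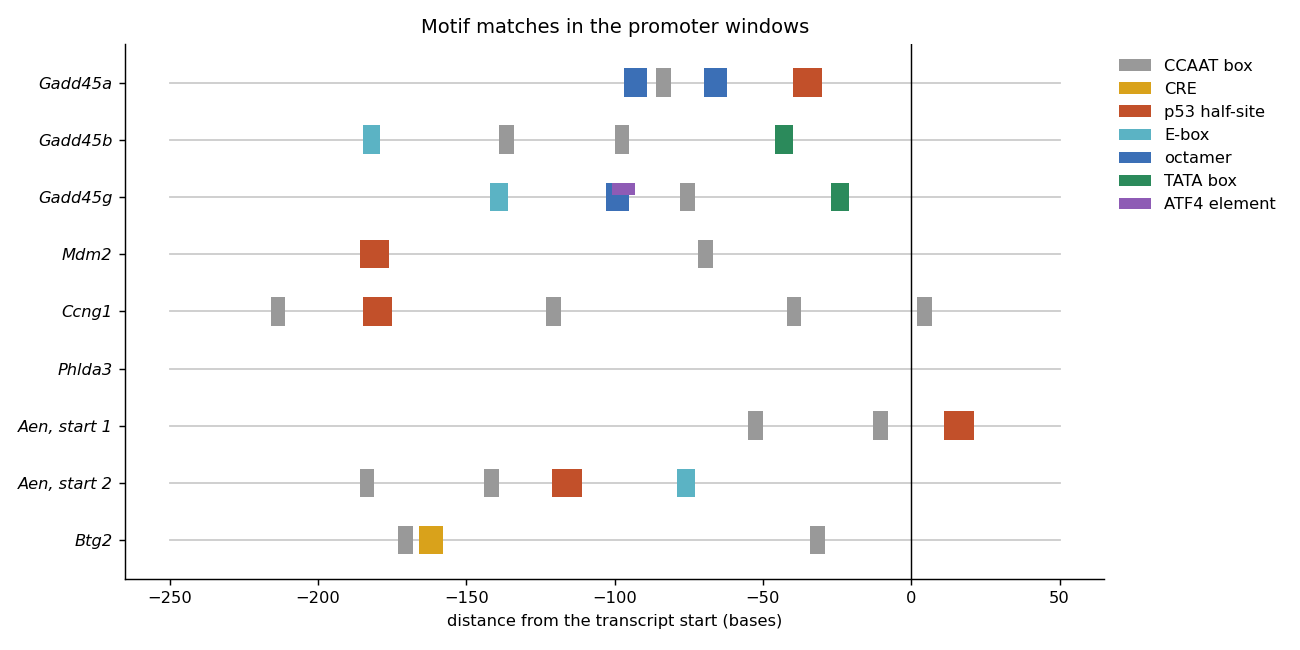
Motif matches (coloured boxes) in the windows of 8 genes, by distance in bases from the transcript start (x axis); Aen has 2 annotated starts, and Phlda3 held none of the 7 motifs. Gadd45a shows 2 octamers around a CCAAT box and a p53 half-site nearer to its start.

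Mdm2 read 8.79, 8.86 and 8.84 on control arrays, the tightest control spread of the 10 together with Ccng1 (SD 0.03 each, n = 3). It read 9.74 on DOX replicate 1, 9.54 on DOX replicate 3 and 7.56 on DOX replicate 2, so 2 DOX arrays lay above all controls and DOX replicate 2 below them. All arrays together gave 0.12, with a 95% confidence interval of −1.24 to 1.47 (limma adjusted p = 0.912). On the other arrays Mdm2 rose by 0.81 (SE 0.11, limma adjusted p = 4.07e-04), a 1.76-fold change that passed in all 14 alternatives of that comparison.

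Trp53inp1 encodes a stress-induced protein of nuclear bodies and autophagosomes that promotes p53-dependent death. It read 9.24, 9.34 and 9.41 in the absence of the drug, and 11.22, 8.52 and 10.82 on DOX replicates 1, 2 and 3. DOX replicate 2 lay below the controls and the other two above them, the widest spread within the DOX group (SD 1.46, n = 3). The difference was 0.86 (SE 0.68, limma adjusted p = 0.526) with all arrays. With that array left out Trp53inp1 rose by 1.69 (SE 0.14, limma adjusted p = 6.91e-06), which is 3.23-fold, and this call also held in all 14 alternatives.

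Zmat3, an RNA-binding zinc finger protein that acts on splicing downstream of p53, read 6.94, 7.06 and 7.07 on control arrays and 7.89, 6.96 and 7.27 on DOX replicates 1, 2 and 3. DOX replicate 2 lay among the controls. The difference was 0.35 (limma adjusted p = 0.516) with all arrays, and without DOX replicate 2 Zmat3 rose by 0.56 (SE 0.16, limma adjusted p = 0.0275). That call rests on DOX replicate 1: without it as well, the difference was 0.25 and did not pass. Leaving out any 1 control array also ended it.

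Phlda3, a pleckstrin homology domain protein that competes with AKT for membrane lipids, read 8.81, 8.88 and 8.74 on control arrays and 9.18, 7.35 and 9.04 on DOX replicates 1, 2 and 3. Aen, a nuclease of the apoptotic response, read 7.65, 7.67 and 7.60 and then 8.10, 7.30 and 7.78. In both genes DOX replicates 1 and 3 were above every control array and DOX replicate 2 below every one. The differences without DOX replicate 2 were 0.30 for Phlda3 (95% confidence interval 0.05 to 0.55, limma adjusted p = 0.0739) and 0.30 for Aen (95% confidence interval 0.03 to 0.58, limma adjusted p = 0.0998), and neither passed. Each was called in 3 of the 14 alternatives of that comparison. With all arrays they were −0.28 and 0.09 (limma adjusted p = 0.752 and 0.842).

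Btg2, an antiproliferative partner of the CCR4-NOT deadenylase, read 7.63, 7.40 and 7.58 on control arrays and 8.21, 6.40 and 8.02 on DOX replicates 1, 2 and 3. DOX replicate 2 was the lowest array and the others the highest. The difference was 0.01 (SE 0.48, limma adjusted p = 0.995) over the 6 arrays. Btg2 rose by 0.58 without DOX replicate 2 (SE 0.12, limma adjusted p = 0.00521), a call kept in all 14 alternatives. Ccng1 encodes cyclin G1, an early p53 target that guides the phosphatase PP2A to Mdm2. It read 11.27, 11.31 and 11.26 on control arrays and 11.41, 9.78 and 11.44 on DOX replicates 1, 2 and 3. Its difference of −0.41 over the 6 arrays had a 95% confidence interval of −1.50 to 0.69 (limma adjusted p = 0.634). Leaving out DOX replicate 2 turned it to 0.14, with an interval of −0.10 to 0.38 (limma adjusted p = 0.379).

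The array that stood apart was set against genes of similar level. All genes were divided by control level into 10% steps, and the median difference from control was taken in each step. On DOX replicate 2 this median was 0.84 in the lowest step and −1.59 in the highest, while on DOX replicates 1 and 3 it stayed between −0.12 and 0.14. Gadd45a was 0.81 above its control mean on DOX replicate 2, where genes of its step read a median of −1.06, and stood at the 98.9th percentile of that step. Gadd45b was 2.30 below its control mean, against −1.59 for its step, and stood at percentile 22.3 of that step. On DOX replicates 1 and 3 Gadd45b stood at percentiles 13.1 and 39.9 of its step, and Gadd45a at 99.9 on both. Mdm2 at −1.27, Ccng1 at −1.51, Phlda3 at −1.46 and Btg2 at −1.13 were close to their steps' medians of −1.36, −1.59, −1.36 and −1.06. Trp53inp1 at −0.81, Aen at −0.34, Zmat3 at −0.07 and Gadd45g at −0.06 lay above theirs, which were −1.59, −1.06, −0.75 and −0.75. The part of the compressed scale in each difference was not tested.

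**Figure D4:**
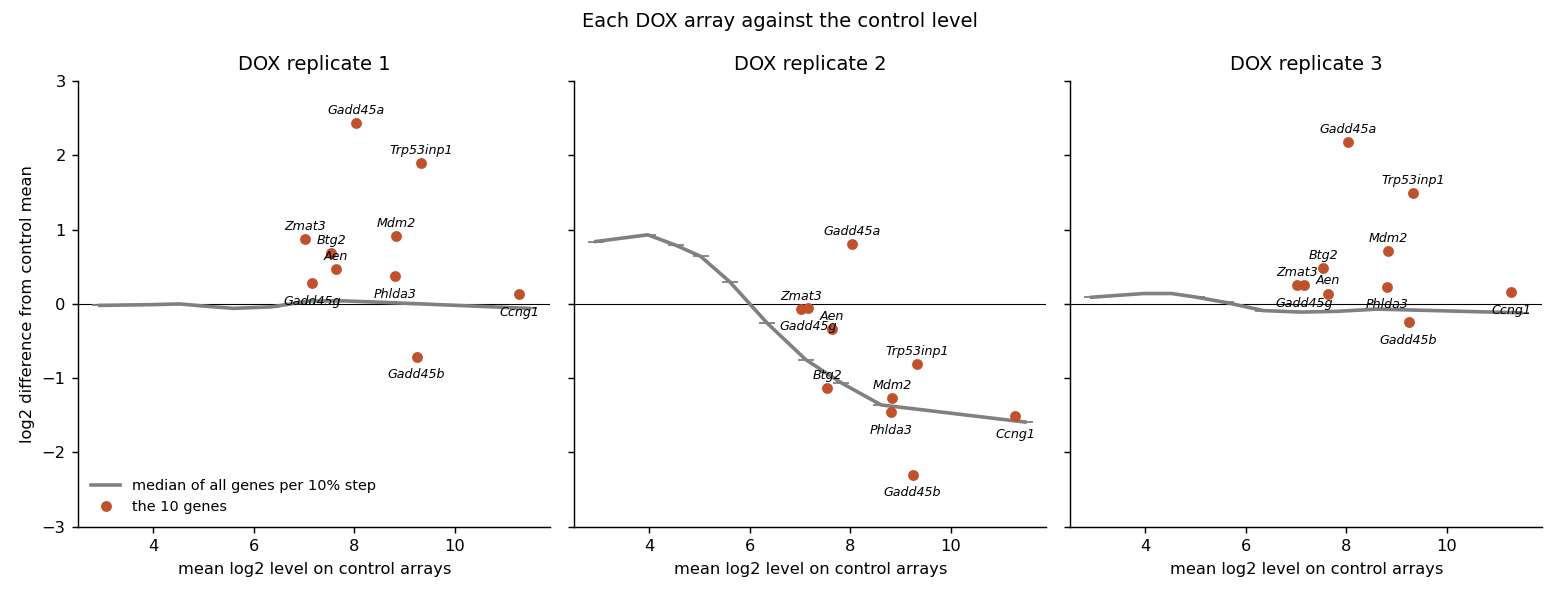
Difference of each DOX array from the control mean in log2 units (y axis) against the control level (x axis). Grey lines join the medians of all genes in 10% steps of control level, and points are the 10 genes. On DOX replicate 2 Gadd45a is at 0.81 where genes of its step are near −1.06.

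Rank within an array does not change when a scale is compressed evenly, so each gene was also placed by its percentile among all genes of the array, a view added after the data were seen. Gadd45a was at the 77.0th to 79.2nd percentile on control arrays and at the 97.7th, 96.6th and 97.2nd on DOX replicates 1, 2 and 3. Trp53inp1 went from the 91.6th to 92.9th percentile on control arrays to the 99.0th, 95.1st and 98.6th. By this measure 5 of the 10 genes (Gadd45a, Trp53inp1, Zmat3, Aen and Gadd45g) lay above all control arrays on every DOX array, against 19.0% of all genes, and 1, Gadd45b, lay below, against 18.4%. By log2 value 1 gene (Gadd45a) lay above on every DOX array, against 11.7% of all genes, and 1 (Gadd45b) below, against 20.3%. On DOX replicates 1 and 3 alone, 9 of the 10 lay above all control arrays, where 25.4% of all genes did, and 1 below, where 26.2% did. Mdm2, at the 87.5th to 88.4th percentile on control arrays, stood at 94.7, 87.0 and 94.0.

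Profiles were compared by the root mean square distance between deviations from the control mean over the 6 arrays, which share the compressed array. Among the 10, Ccng1 and Phlda3 were nearest to each other (0.11 log2 units), followed by Gadd45g and Aen (0.16) and by Mdm2 and Btg2 (0.17). Gadd45a and Gadd45b were the farthest pair (2.06). Among all named genes, Cyb5r1 (0.09), Rassf6 (0.11) and Maoa (0.17) were nearest to Gadd45a. S100a11 (0.06), Narf (0.07) and Errfi1 (0.07) were nearest to Gadd45b. Slc19a2 (0.05), Pik3c2a (0.07) and Kif3a (0.08) were nearest to Mdm2, and Wars (0.11), Bcl6 (0.14) and Dsg3 (0.14) to Trp53inp1. The nearest genes were Nsmce2 for Ccng1 (0.03), Khdc4 for Btg2 (0.03), Taf3 for Zmat3 (0.05) and Cystm1 for Phlda3 (0.05).

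Other p53 targets went in both directions. Of 27 listed, 24 were measured. With all arrays 1 fell and 23 did not pass, and without DOX replicate 2, 8 rose (33.3%), 4 fell (16.7%) and 12 did not pass, with a median of 0.23. Of all genes, 12.3% were called higher and 14.3% lower without DOX replicate 2, so the share that fell was near that of all genes. Rises in that comparison were seen for the nucleotide excision repair genes Ddb2 (0.77, SE 0.11) and Xpc (0.77, SE 0.13) and for the translesion polymerase gene Polk (0.64, SE 0.11). With all arrays the same genes differed by 0.16, 0.61 and 0.16, and limma called none of them (adjusted p = 0.863, 0.274 and 0.838). The genes that fell were Sesn1, a sestrin that restrains mTORC1 (−0.64, SE 0.11), Gtse1, a p53-binding protein of the G2 phase (−0.93, SE 0.12), and, named after their values were seen, Pidd1 (−0.37) and Psrc1 (−0.37). With all arrays Sesn1 was at −1.15, Pidd1 at −0.39 and Psrc1 at −0.81, and none of the 3 was called. Gtse1 also fell with all arrays (−0.94, SE 0.17, limma adjusted p = 0.0438). For Fas, a death receptor, the differences were 0.57 over all arrays and 0.44 without DOX replicate 2, and limma called neither (adjusted p = 0.350 and 0.0709).

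Among 17 measured genes of the p53 family and its regulators, the checkpoint kinase genes Chek1 (−2.60, SE 0.23, limma adjusted p = 0.00377) and Chek2 (−1.95, SE 0.27, limma adjusted p = 0.018) fell with all arrays. Both also fell without DOX replicate 2 (11.8% of the list, against 14.3% of all genes) and 6 rose (35.3%, against 12.3%). The rises included Hipk2, a kinase of p53 (1.30, SE 0.12), Ep300, a p53 acetyltransferase (1.24, SE 0.16), and Prkdc, the DNA-dependent protein kinase (1.05, SE 0.17). With all arrays these 3 were at 1.05, 0.73 and 0.72 and were not called (limma adjusted p = 0.115, 0.462 and 0.403). Of 13 genes of DNA break sensing and repair, H2ax, the histone variant phosphorylated at breaks, fell with all arrays (−1.49, SE 0.27, limma adjusted p = 0.0494). In the 5-array comparison 7 fell (53.8%, against 14.3% of all genes) and 2 rose (15.4%, against 12.3%). The falls included Brca1 (−1.55, SE 0.12), Fancd2 (−1.12, SE 0.13) and Parp1 (−0.79, SE 0.11). The rises were Rad50 (0.43) and Mdc1 (0.51), both named after their values were seen. With all arrays Brca1 was at −1.22, Fancd2 at −0.83, Parp1 at −1.04, Rad50 at 0.05 and Mdc1 at 0.42, none of them called.

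A list of GADD45 partners and of stress kinases downstream of them had 11 measured genes. Cdk1, the mitotic kinase that Gadd45a inhibits, fell with all arrays (−2.59, SE 0.22, limma adjusted p = 0.00361). Leaving out DOX replicate 2, 5 fell (45.5%, against 14.3% of all genes) and 6 did not pass. Beside Cdk1 these were Pcna, the replication clamp (−1.22, SE 0.15), and the stress kinase genes Map2k3 (−0.69, SE 0.11), Map2k6 (−0.74, SE 0.12) and Mapk14 (−0.34, SE 0.11). With all arrays these 4 were at −0.98, −1.05, −0.34 and −0.57 and were not called. The gene of MEKK4, Map3k4, named after its values were seen, did not pass (−0.23, limma adjusted p = 0.270). Of 14 measured regulators known to induce GADD45 genes, Ddit3, the CHOP transcription factor downstream of ATF4, rose with all arrays (2.44, SE 0.16, limma adjusted p = 0.00203). In the comparison that leaves out DOX replicate 2, 7 of the 14 rose and 2 fell (14.3%). There 12.3% of all genes were called higher and 14.3% lower, so the share that fell was that of all genes. Atf3 (1.42, SE 0.29), Smad3 (0.78, SE 0.11) and Smad4 (0.55, SE 0.11) were among the rises, and Stat3 (−0.58, SE 0.11) and Foxo1 (−0.43, SE 0.13) fell. Atf4 itself, named after its values were seen, rose by 0.57. With all arrays Atf3 was at 1.45, Smad3 at 0.45, Smad4 at −0.02, Stat3 at −1.12, Foxo1 at −0.87 and Atf4 at 0.29, none of them called.

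Among 13 measured relatives of the 10 genes, Phlda2, a relative of Phlda3, fell with all arrays (−1.25, SE 0.23, limma adjusted p = 0.049). In the 5-array comparison Phlda2 (−1.04, SE 0.11) and Phlda1 (−0.54, SE 0.12) fell, and Btg1, a relative of Btg2, rose by 0.99 (SE 0.18). The other 10 did not pass. The 3 calls among 13 compare with 26.6% of all genes called in either direction. With all arrays Phlda1 was at −1.18 and Btg1 at 0.46, neither called. These lists were chosen with earlier results of the same data known, so their counts are descriptions. In each of the 6 lists at most 3 measured genes lay below the median control level of all genes. The shares of all genes given beside the lists cover every level and so understate those among genes of similar level.

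**Figure D5:**
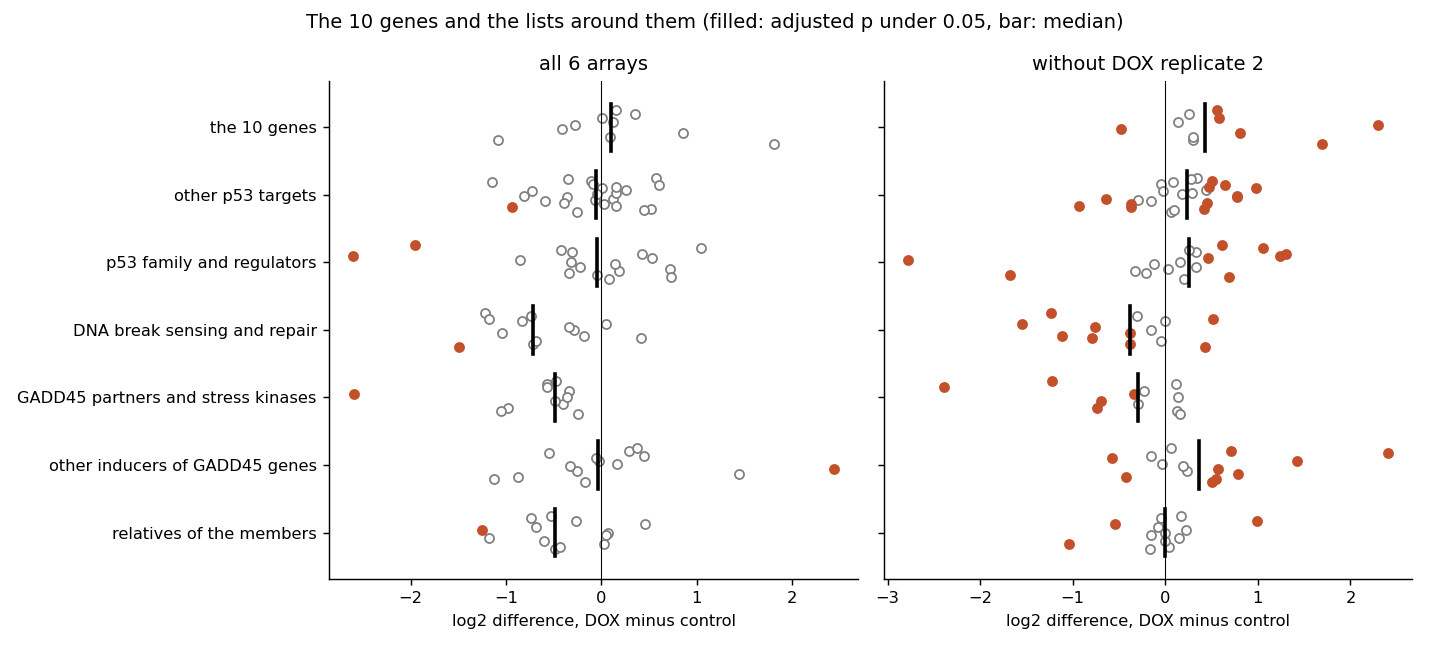
Log2 difference, DOX minus control (x axis), of the 10 genes and of the genes in 6 lists around them (y axis), with all arrays at the left and without DOX replicate 2 at the right. Each point is 1 gene, filled symbols mark a limma adjusted p under 0.05 and bars are medians. Without DOX replicate 2 the bar of the 10 genes is at 0.43 and that of the DNA break genes at −0.38.

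In a bulk sample, fewer cells that express a gene and less RNA per cell cannot be told apart. Markers of other cell types were followed beside these results. Of 8 fibroblast, 6 adipocyte and 6 endothelial markers, each list's mean level per array was 4.26 to 4.91 on control arrays. It was 4.36 to 5.03 on DOX replicates 1 and 3 and 5.15 to 5.71 on DOX replicate 2, and none of these 20 genes was called. On DOX replicate 2 genes of low level read high whatever their kind. The median difference from control there was 0.64 to 0.93 in the 4 lowest 10% steps of control level. Of 7 leukocyte markers, Ptprc (0.38) and Cd68 (1.01), also a lysosomal gene, rose without DOX replicate 2 (0.52 and 0.49 with all arrays, not called), and the list's mean level went from 4.94 to 4.98 on control arrays to 5.06 and 5.28 on DOX replicates 1 and 3. These 2 calls (28.6%) compare with 12.3% of all genes called higher. Of 8 luminal markers 3 fell without DOX replicate 2, among them Krt8 (−0.74) and Krt18 (−0.64), and of 8 basal markers Krt14 and Oxtr fell. These 2 counts compare with 14.3% of all genes called lower, a share that covers genes of every level. Of the luminal markers 1, and of the basal markers 6, lay below the median control level of all genes. With all arrays Oxtr alone of these 16 was called (−1.91, limma adjusted p = 0.018). Luminal mean levels were 9.58 and 9.62 on DOX replicates 1 and 3, and basal ones 5.14 and 5.31. The part of these shifts in the differences of the 10 genes was not tested.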

How the data were processed

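For each of the 6 one-colour arrays the authors deposited log2 values per probe set. RMA and affy are listed in the submitters' processing notes, with no version, and the annotation build was not given in the sources used here. Of 34760 probe sets, 21640 had 1 gene symbol, 1321 had several and 11799 had none here. Where a gene had several probe sets, the brightest by its mean across arrays was kept. Groups and replicate numbers come from the sample titles.

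Differences are DOX minus control, tested two-sided with limma (version 3.58.1, R 4.3.3), with Benjamini-Hochberg adjustment over all 19937 genes and a threshold of 0.05, once with all arrays and once without DOX replicate 2. The 10 genes and all lists were chosen with earlier results of these data known. Besides the 10, the rule for names took Erbb3, the 3 genes nearest to each member in profile, and from each list up to 4 genes with the smallest p in the comparison of all arrays and up to 4 in that without DOX replicate 2. Other names are marked, apart from cell type markers. The promoter motifs were chosen after the sequences were seen. In simulated data with 19937 genes, limma recovered 4% of 2-fold and 70% of 4-fold changes with all arrays, and 100% of both without DOX replicate 2, where 6.1% of the calls were unchanged genes. The simulated noise was normal, with the same spread on every array of a gene and no compressed array. Few genes were changed, whereas 26.6% were called in the real data without DOX replicate 2. The percentages therefore check the procedure and do not give its power or false calls in these data. Alternatives covered the replicate number as a block, each array left out, filters, normalizations, probe sets, variance models and array weights. The number of arrays limits the precision.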

Additional observations from a re-analysis of the deposited data

How the results depend on the processing

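Among the 10 genes, Gadd45a, Mdm2, Trp53inp1 and Btg2 kept their direction and their call in all 14 alternatives to the comparison without DOX replicate 2, with differences of 2.18 to 2.44, 0.71 to 0.95, 1.49 to 1.89 and 0.48 to 0.71. Zmat3 kept its call in 10 of 14 and Gadd45b in 8 of 14. Of the uncalled genes, Phlda3 and Aen each gained a call in 3 of 14, Gadd45g in 1 and Ccng1 in 0. With a lone DOX array left, its spread was taken to be that of the controls. With all arrays, Gadd45a was called in 4 of 15 alternatives (1.49 to 2.30, adjusted p up to 0.455). Reversals with all arrays concerned differences that were not called. Leaving out 1 array gave −0.33 to 0.58 for Btg2, −0.28 to 0.81 for Mdm2, −0.10 to 0.30 for Aen, −0.69 to 0.14 for Ccng1 and −0.61 to 0.30 for Phlda3, and the sign turned for Ccng1 with array weights (0.14) and for Phlda3 with array weights (0.25) and cyclic loess (0.13). The cause was not tested.

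With all arrays, leaving out 1 array gave 0 to 5 of the 10 genes higher and 0 to 1 lower, and over all genes 2 to 2454 higher and 61 to 2855 lower, the highest counts without DOX replicate 2. Of the 10 genes, 1 was higher with quantile or with cyclic loess normalization and 5 with array weights. Over all genes, quantile normalization called 185 higher (22.8% of the calls, against 5.06% as deposited), cyclic loess 557 higher and 1197 lower (31.8%) and array weights 3643 higher and 3752 lower (49.3%). Without DOX replicate 2, leaving out 1 more array gave 4 to 6 of the 10 genes higher, 0 to 1 lower, and over all genes 1550 to 2515 higher. Centring each array on its median shifted the median of all genes to 0.14, with 8 of the 10 genes higher, 0 lower, and over all genes 4568 higher (68.6% of the calls, against 46.2%). By within-array percentile, added after seeing the data, 5 of the 10 genes lay above all controls on every DOX array, against 1 by log2 value.

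With the replicate number as a block, 3 genes were higher and 159 lower with all arrays. Without DOX replicate 2 the block left 5 of the 10 genes higher and 0 lower, so Gadd45b lost its call, and over all genes 1841 were higher and 2320 lower. Same-numbered arrays correlated in their deviations from the group means at 0.117, 0.194 and 0.0852, and arrays of different numbers at −0.185 to 0.116. For each control array, DOX replicates 1 and 3 gave like values and DOX replicate 2 one of opposite sign. These correlations therefore follow the array that stood apart and cannot show or exclude pairing. The main comparisons were run unpaired, with the block as an alternative.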
